A study of Mus musculus with 4 samples.

Results

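A group of 9 genes of the endothelin, KIT and agouti signals was followed in dermal white adipose tissue (dWAT), the fat layer around the lower ends of hair follicles (HFs), among the 22913 genes measured. They are the ligands Edn1 and Edn3, the receptors Ednra and Ednrb, the converting enzyme Ece1, the receptor Kit with its ligand Kitl, and the agouti gene Asip with Corin. They were chosen as a list of genes that guide pigment cells, and in part because the difference of Ece1 between OAD and YAD was known to be among the largest, so the values of that comparison are a description and support nothing further. All 9 genes were found. Asip is listed under the symbol a and was matched through its RefSeq synonym ASIP.

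RNA of microdissected dWAT from C57BL/6 mice was sequenced in 4 libraries, which are old mice in telogen (OTD), young mice in telogen (YTD), old mice in anagen (OAD) and young mice in anagen (YAD). Telogen is the resting phase of the HF cycle and anagen the growing phase, and anagen was induced by depilation. The treatment text of the labels gives 18 months for old and 2 months for young mice, but the age field puts YTD at 18 months and OAD at 2 months, and the groups were taken from the titles. Each group is 1 library, made per the study's methods from tissue of several mice, so no spread between mice is known and no difference below carries a test or a p-value. C57BL/6 mice are black and carry the nonagouti allele of Asip, which the old and young groups share.

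Endothelins are made as longer precursors that are cut by furin-like proteases and then by ECE1 to give short active peptides, which bind the receptors EDNRA and EDNRB. EDN3 acting on EDNRB is known for its role in the spread and survival of the precursors of pigment cells (melanocytes), and EDN1 is known for narrowing blood vessels. KIT ligand, made by keratinocytes and stromal cells, acts on KIT, which melanocytes and mast cells carry. Agouti protein, made by the dermal papilla (the stromal cells at the base of the HF), blocks the melanocortin receptor MC1R on melanocytes and turns pigment from black to yellow, and CORIN, a protease of the dermal papilla, dampens that action.

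The stretches that code for the mature endothelin peptides are shown because Edn1 and Edn3, which took different courses here, encode closely related peptides. They were read from the GRCm38 genome on the plus strand, within exon 2 of the annotated coding transcripts of Edn1 (chr13:42303649-42303711) and Edn3 (chr2:174761749-174761811). Capitals mark the bases at which the pair differs.
Edn1: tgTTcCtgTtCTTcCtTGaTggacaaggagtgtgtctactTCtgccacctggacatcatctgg
Edn3: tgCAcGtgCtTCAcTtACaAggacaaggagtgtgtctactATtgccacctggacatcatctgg
Of the 63 bases, 50 are the same and 13 differ, and of the 21 encoded residues 15 are the same and 6 differ. Both stretches hold 4 cysteine codons. The stretch of Ece1 that codes for its zinc-binding motif, which the enzyme needs to cut endothelin precursors, is shown with 15 bases on each side, from exon 17 of its annotated coding transcript (chr4:137957157-137957201, plus strand), with the 5 codons of the motif in capitals.
Ece1: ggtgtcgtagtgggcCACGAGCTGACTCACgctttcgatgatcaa

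Levels are given in FPKM as deposited (fragment numbers divided by the listed length of the gene and by library size). Differences are log2(FPKM + 1) of the first group named minus that of the second, which understates the difference of low values, and genes that differed by 1 or more in either direction are called changed. Depth was estimated from the lowest values, since read counts were not used here, at 18700000 to 24000000 fragments per library. Ratios of FPKM carry an exact 95% Clopper-Pearson interval on these estimated fragments, which covers counting error only and not the spread between mice. Mitochondrially encoded genes held 52.7% (OTD), 44.7% (YTD), 18.3% (OAD) and 14.4% (YAD) of the total FPKM. The 12 adipocyte markers summed to 2012 to 8147 FPKM and none of them was at 0, but 10 skeletal muscle markers summed to 9824 to 86378 FPKM, and 11 hair matrix and shaft markers to 34.8 FPKM in OTD and 104 in YTD, and 11418 in OAD and 11871 in YAD. Markers of muscle were thus abundant beside those of fat, and markers of growing HFs were abundant in the anagen libraries. In such bulk RNA, fewer cells of a type and less RNA per cell cannot be told apart.

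**Figure D1:**
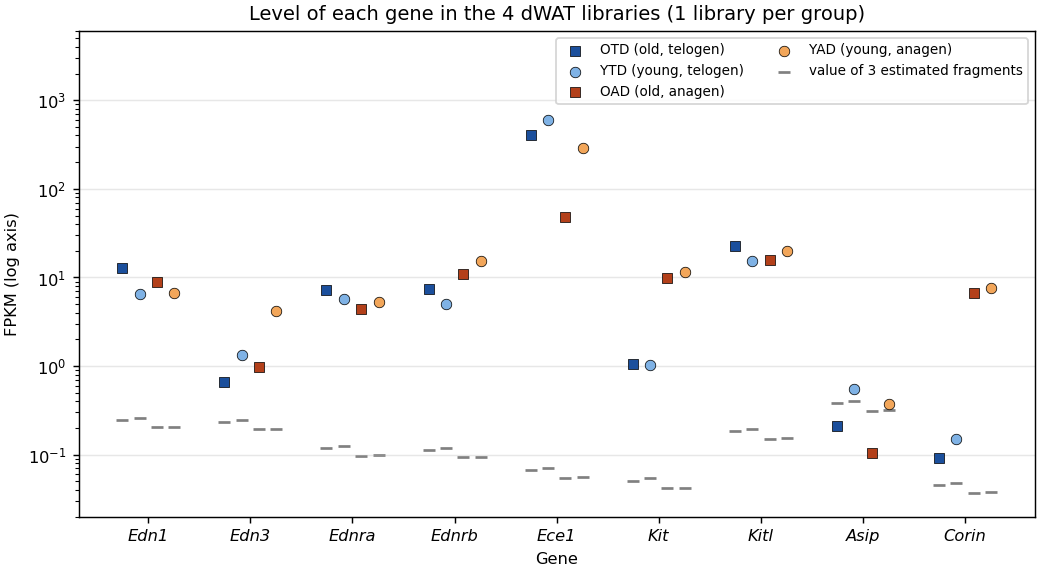
FPKM (log axis) of each of the 9 genes in OTD, YTD, OAD and YAD, with 1 point per library and grey dashes at the value of 3 estimated fragments. Ece1 is the highest of the 9 in every library and is lowest in OAD at 47.9 FPKM, Kit and Corin stand high in both anagen libraries, and Asip lies near or under the dashes.

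Between old and young mice, the differences of the 9 genes were mostly small. In telogen, 5 stood above YTD in OTD and 4 below, and the median difference was 0.03. The background there was 5716 of 12982 genes with an FPKM of at least 1 above their YTD level, and a median of -0.06. Of the 9 genes, 0 were changed, beside 2.71% of all 22913 genes (1.25% to higher and 1.45% to lower). In anagen, 1 was higher and 8 were lower in OAD than YAD, and the median was -0.31. Among genes with an FPKM of at least 1, 6544 of 13068 were lower in OAD, and the median was -0.0006. Of the 9 genes, 2 were changed, both lower, beside 0.908% of all genes, 0.559% to higher and 0.349% to lower. As Ece1 was chosen from that contrast, nothing is read from its count. The 2 changed genes were Ece1 (-2.57) and Edn3 (-1.38), and the nearest gene not counted was Ednrb (-0.44). The signs of all 9 differences in both ageing comparisons were the same under every scaling, while a pseudocount or filter cannot change a sign. In telogen the ratios of Edn3, Kit, Asip and Corin have intervals that hold 1. Those of Ednra, Asip and Corin do so in anagen, and these signs lie within counting error.

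Between anagen and telogen, 25.2% of all genes were changed in young mice (12.3% to higher and 12.8% to lower) and 24.5% in old mice (12.5% and 12%). Of the 9 genes, 5 were changed between YAD and YTD, of which 4 were higher in anagen (Corin, Kit, Ednrb and Edn3) and 1 was lower (Ece1). Between OAD and OTD, 3 were changed, with Corin and Kit higher and Ece1 lower in anagen. These comparisons share their libraries with the ageing comparisons, so the values are set side by side and not related to each other. Rescaling to TPM moved the median difference of genes with an FPKM of at least 1 from 0.03 to 0.76 in young mice and from 0.05 to 0.58 in old mice. Relative to that median, Kit stayed between 2.53 and 2.61 over the scalings in young and between 2.23 and 2.38 in old mice, Corin between 2.66 and 2.87 and between 2.53 and 2.89, and Ece1 between -1.06 and -0.95 and between -3.14 and -3.02.

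**Figure D2:**
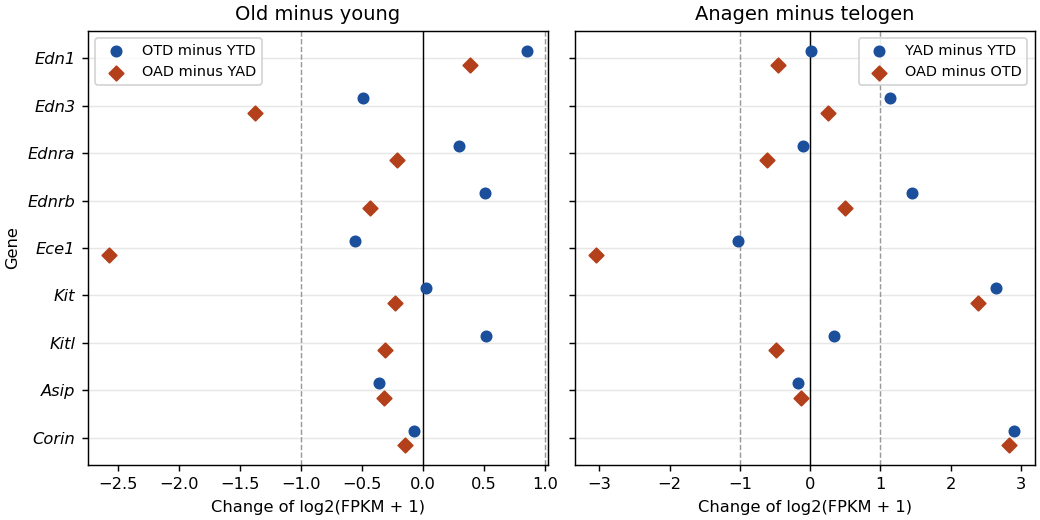
Difference of log2(FPKM + 1) for each of the 9 genes, old minus young on the left (blue circles telogen, red diamonds anagen) and anagen minus telogen on the right (blue circles young, red diamonds old). The dashed lines stand at 1 and -1, and Ece1 at -2.57 (OAD minus YAD) and -3.05 (OAD minus OTD) is the farthest to the left in both panels.

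Edn1 (ENSMUSG00000021367, chromosome 13 from 42301270 to 42307989), the vessel-narrowing ligand, was higher in old mice in both phases, but under the threshold. Its level was 12.7 FPKM in OTD and 6.56 in YTD, and 8.99 in OAD and 6.65 in YAD. OTD was thus the highest of the libraries, OAD was next, and the young libraries stood together. The ratio of OTD to YTD was 1.93 (1.46 to 2.58), a difference of 0.86, and that of OAD to YAD was 1.35 (1.03 to 1.78), a difference of 0.39. YAD and YTD did not differ beyond counting error, at a ratio of 1.01 (0.739 to 1.39). The blood vessel endothelial markers, whose cells make EDN1, were also higher with age. Of them, 12 of 12 exceeded their YTD level in OTD and 12 of 12 their YAD level in OAD, beside 5716 of 12982 and 6524 of 13068 genes with an FPKM of at least 1. Their sums were 697 FPKM in OTD and 458 in YTD, and 184 in OAD and 140.1 in YAD. Between phases they did not move with Edn1, since 12 of 12 were changed to lower in anagen in both ages, beside 12.8% (young) and 12% (old) of all genes. Edn1 differed there by 0.02 in young and -0.45 in old mice. Adipocyte markers were also higher in OAD, 12 of 12, and 7 of 12 in OTD. The part of endothelial cells in the Edn1 values was not tested.

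Edn3 (ENSMUSG00000027524, chromosome 2 from 174760619 to 174784042), the endothelin of melanocyte precursors, stood out in YAD. It was at 0.657 FPKM in OTD and 1.33 in YTD, and 0.983 in OAD and 4.15 in YAD, worth about 8.38, 16.1, 15.2 and 63.6 fragments. YAD was the highest library. The other 3 could not be told apart at these fragment numbers. The intervals of YTD against OAD (ratio 1.36, 0.632 to 2.96) and of OAD against OTD (1.497, 0.616 to 4.21) both hold 1 but are wide. Edn3 was 4.23-fold lower in OAD than YAD (2.43 to 8.15), which placed it 33rd from the lowest of the 22913 differences. In telogen OTD was lower than YTD by 0.49 on the log2 scale, with an interval of the ratio that holds 1 (0.175 to 1.17). YAD was 3.12-fold above YTD (1.80 to 5.85). Of the dermal papilla markers 11 of 15 were also lower in OAD (median -0.31), beside 6544 of 13068 genes with an FPKM of at least 1. These markers summed to 85.8 FPKM in OAD against 106 in YAD, and their part in the difference of Edn3 was not tested.

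Ece1 (ENSMUSG00000057530, chromosome 4 from 137862237 to 137965229), which makes active endothelin from its precursor, was the most abundant of the 9 genes and had the largest difference with age. Its level was 405 FPKM in OTD and 595 in YTD, and 47.9 in OAD and 290.3 in YAD. By level it was gene number 241 of 22913 in OTD, 185 in YTD, 290 in YAD and 1627 in OAD. All neighbours in this order differed beyond counting error, and OAD stood far below the rest. Ece1 was 6.06-fold lower in OAD than YAD (5.81 to 6.32), the fifth lowest of all differences. In telogen it was 1.47-fold lower in OTD than YTD (1.44 to 1.497), a difference of -0.55 that does not reach the threshold.

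Both age groups had less Ece1 in anagen than in telogen, by 2.05-fold in young mice (2.01 to 2.09) and by 8.45-fold in old mice (8.11 to 8.81). The first of these, a difference of -1.03, is just past the threshold and was no longer counted as changed in TPM (-0.19, against a median of 0.76 over the genes with an FPKM of at least 1), with mitochondrially encoded genes left out (-0.82) or with skeletal muscle genes left out as well (-0.99). The related enzyme Ece2 showed no such pattern, at 6.83 FPKM in OTD and 6.60 in YTD, and 7.40 in OAD and 7.86 in YAD.

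Ece1 had few genes like it. Likeness was the Euclidean distance between the log2(FPKM + 1) values of 2 genes over the 4 libraries, each centred on its own mean, over 12732 genes with a mean FPKM of at least 1. No gene lay within 0.5 of Ece1, 4 lay within 0.5 of Edn3 and 2035 within 0.5 of Ednra. The distance is not scaled for the size of the differences, so a gene with large differences can have few others near it. As Ece1 was chosen for a large difference, its lack of near genes is a description only. The nearest were the collagen genes Col1a1, at a distance of 0.57 with 94.5 FPKM in OTD and 133 in YTD, and 16.5 in OAD and 64.4 in YAD, and Col1a2 at 0.68 with 177, 175, 21.7 and 78.3 FPKM. The 10 fibroblast markers summed to 1613 FPKM in OTD and 1158 in YTD, and 227 in OAD and 444 in YAD. In anagen 10 of 10 were lower in OAD (median -0.65), whereas in telogen 8 of 10 were higher in OTD, where Ece1 was lower. Of genes with an FPKM of at least 1, 6544 of 13068 were lower in OAD and 5716 of 12982 higher in OTD. The part of fibroblast RNA in the Ece1 values was not tested.

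The genes around Ece1 did not share its difference. Of the 14 genes within 500 kb that reached an FPKM of 1 in any library, 5 were lower in OAD than YAD, from -0.26 (Usp48) to 0.63, with a median of 0.05. In telogen 10 of the 14 were lower in OTD, from -0.78 to 0.82 with a median of -0.17. The annotation places the antisense gene Gm13012 in the span of Ece1, where overlap was judged on whole spans and not on exons. Use of strand in the authors' counting is not given in the sources used here, so whether reads of this pair were mixed is not known. The same holds for Edn1 and its antisense gene Gm47118, for Corin and Gm20647, and for Ednra and 4933431K23Rik.

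**Figure D3:**
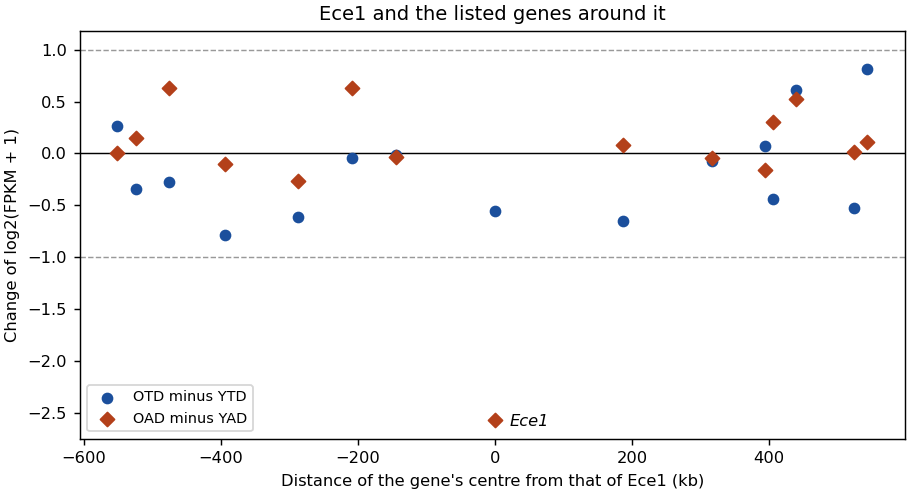
Difference of log2(FPKM + 1) between old and young mice for Ece1 and the 14 genes around it, against the distance of the gene's centre from that of Ece1 in kb, with blue circles for telogen and red diamonds for anagen. Ece1 lies at -2.57 in anagen, and the others stay between -0.26 and 0.63 there.

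Ednra (ENSMUSG00000031616, chromosome 8 from 77663031 to 77724436), the receptor that vascular smooth muscle carries, stayed under the threshold in every comparison. It was at 7.25 FPKM in OTD and 5.72 in YTD, and 4.38 in OAD and 5.24 in YAD. OTD was highest, and its ratio to YTD was 1.27 (1.01 to 1.59). The 3 lower libraries did not differ from each other, taken as neighbours in order, beyond counting error, with a ratio of YAD to OAD of 1.20 (0.947 to 1.52). Between phases in old mice, Ednra was 1.65-fold lower in OAD than OTD (1.32 to 2.08), a difference of -0.62. The sum of the 12 smooth muscle and pericyte markers ran from 383 FPKM in YAD to 2077 in YTD. Des alone gave 181 and 1666 FPKM of these, so that range rests largely on 1 gene and is not set against Ednra. By gene, 8 of 12 stood higher in OTD than YTD and 8 of 12 in OAD than YAD. Of genes with an FPKM of at least 1, 5716 of 12982 and 6524 of 13068 did. The part of these cells in the Ednra values was not tested.

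Ednrb (ENSMUSG00000022122, chromosome 14 from 103814625 to 103844173), the receptor of melanocytes and their precursors that endothelial cells also carry, was higher in anagen. Its level was 7.50 FPKM in OTD and 4.98 in YTD, and 11.04 in OAD and 15.3 in YAD. Each step in this order was larger than counting error. YAD was 3.07-fold above YTD (2.52 to 3.78), a difference of 1.45, while OAD was 1.47-fold above OTD (1.23 to 1.76), a difference of 0.50. With age, Ednrb was 1.51-fold higher in telogen (1.20 to 1.90) and 1.39-fold lower in anagen (1.21 to 1.60). The sum of 12 melanocyte markers was 26.1 FPKM in OTD and 25.6 in YTD, and 529 in OAD and 864 in YAD, the sum of 10 Schwann cell markers was 754, 574, 106 and 128, and the part of these cells in the values of Ednrb was not tested.

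Kit (ENSMUSG00000005672, chromosome 5 from 75574916 to 75656722), the receptor of melanocytes and mast cells, was higher in both anagen libraries than in telogen. It was at 1.06 FPKM in OTD and 1.02 in YTD, and 9.74 in OAD and 11.6 in YAD. The telogen libraries were alike and lay far below both anagen libraries. YAD was 11.4-fold above YTD (8.65 to 15.1), and OAD was 9.20-fold above OTD (7.10 to 12.2). With age, the ratio of OTD to YTD was 1.04 (0.707 to 1.503), and Kit was 1.19-fold lower in OAD than YAD (1.08 to 1.32), a difference of -0.23. Melanocyte markers were higher in anagen as well, 12 of 12 in young and 11 of 12 in old mice, whereas mast cell markers were lower, 8 of 10 and 10 of 10, with sums of 112 FPKM in OTD and 74.2 in YTD, and 16.3 in OAD and 22.4 in YAD. Of genes with an FPKM of at least 1, 6989 of 13738 were higher in anagen in young and 7150 of 13847 in old mice. The part of either cell type in the Kit values was not tested. The genes most like Kit were Espl1 and Dbf4, both genes of dividing cells, at distances of 0.04 and 0.06.

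Kitl (ENSMUSG00000019966, chromosome 10 from 100015630 to 100100413), the ligand of KIT, stayed in a narrow range in which the age difference had opposite signs in the phases. It was at 22.4 FPKM in OTD and 15.4 in YTD, and 15.7 in OAD and 19.7 in YAD. OTD and YAD formed the upper pair, with a ratio of 1.14 (0.983 to 1.32), and OAD and YTD the lower pair, with a ratio of 1.02 (0.860 to 1.22). Kitl was 1.46-fold higher in OTD than YTD (1.24 to 1.73) and 1.25-fold lower in OAD than YAD (1.08 to 1.46). These are differences of 0.52 and -0.31, both under the threshold.

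Asip (ENSMUSG00000027596, chromosome 2 from 154791402 to 155051012), the blocker of MC1R, was at the edge of detection. It was at 0.209 FPKM in OTD and 0.555 in YTD, and 0.105 in OAD and 0.375 in YAD, worth about 1.64, 4.12, 1.0 and 3.52 fragments. The old libraries lay under the value of 3 fragments and the young ones just above it. The ratio of OTD to YTD was 0.377 (0.0428 to 3.30) and that of OAD to YAD was 0.281 (0.00502 to 2.50), so a difference was not detectable at this depth. The listed span of Asip also holds Raly, Eif2s2 and Gm14226. The last of these was listed at 0 in OTD, 0.0864 FPKM in YTD, 0.152 in OAD and 6.73 in YAD. Raly was at 65.2, 68.2, 78.7 and 86.5 FPKM in that order and Eif2s2 at 63.2, 68.1, 81.7 and 88.2. Asip itself is too low for a pattern to be compared with theirs.

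Corin (ENSMUSG00000005220, chromosome 5 from 72300025 to 72504473), the protease that dampens agouti, had the largest difference between phases of the 9 genes in young mice. It was at 0.0924 FPKM in OTD and 0.151 in YTD, and 6.75 in OAD and 7.58 in YAD. The telogen values are worth about 6.11 and 9.45 fragments and do not differ beyond counting error, nor do the anagen values, with a ratio of YAD to OAD of 1.12 (0.998 to 1.26). YAD was 50.2-fold above YTD (27.6 to 116) and OAD 73.0-fold above OTD (33.9 to 204). The 15 dermal papilla markers went both ways between phases. In young mice 10 of 15 were higher in YAD, with 5 changed to higher and 1 to lower (from -1.19 to 3.63). In old mice 8 of 15 were higher in OAD, with 6 changed to higher and 4 to lower (from -1.71 to 4.10). Of all genes, 12.3% and 12.5% were changed to higher and 12.8% and 12% to lower. The marker sums were 99.2 FPKM in OTD and 76.7 in YTD, and 85.8 in OAD and 106 in YAD. Sox18 alone gave 64.6, 44.8, 19.1 and 19.1 FPKM of these, so in telogen the sums rest largely on 1 gene. The part of the dermal papilla in the Corin values was not tested. The genes most like Corin were Dsg2, at a distance of 0.07, and Gpsm2, at 0.10.

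**Figure D4:**
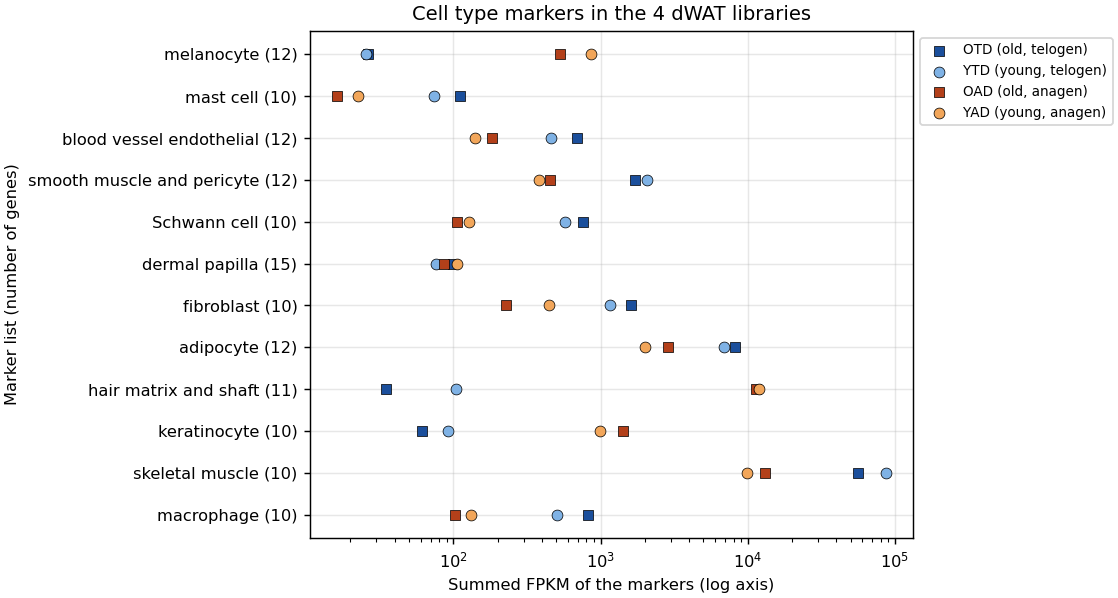
Summed FPKM (log axis) of 12 lists of cell type markers in OTD, YTD, OAD and YAD, with 1 point per library and the number of genes in brackets. Melanocyte markers are at 25.6 to 26.1 FPKM in telogen and 529 to 864 in anagen, and mast cell, endothelial and fibroblast markers are lower in anagen. The dermal papilla sum, in telogen largely Sox18, stays between 76.7 and 106 although single markers differ in both directions.

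The rest of the endothelin pathway differed little with age. Of 15 further genes (processing proteases, receptor signalling proteins and the ligand Edn2), 14 were above 0, and 0 were changed with age in either phase. Of all genes, 2.71% were changed in telogen and 0.908% in anagen, so a count of 0 in a list of this size says little. In OAD 8 stood above YAD and 6 below it, with a median of 0.04, beside a median of 0.00 over all genes with an FPKM of at least 1, and in OTD 10 stood above YTD and 4 below it, with a median of 0.05 beside -0.06. Among its genes with an FPKM of 1 or more in either library compared, the limit used for the leading genes of each list here, the largest differences in anagen were those of the receptor adaptor Arrb1 (7.55 FPKM in OAD and 4.25 in YAD, 0.71), the G protein Gnaq (-0.25) and the protease Mme (0.19), and in telogen they were those of Arrb1 (0.48), Gnaq (0.33) and Mme (0.32). Between phases, Edn2 was changed to higher in anagen, from 0.235 FPKM in YTD to 5.37 in YAD and from 0.0726 in OTD to 5.90 in OAD. Plcb3 was also higher in anagen in both ages, and Plcb4 and Arrb1 were lower.

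Among 26 genes downstream of KIT, 1 was changed with age in telogen and 0 in anagen, beside 2.71% and 0.908% of all genes. The changed gene was Hras, a small GTPase of the pathway, at 51.2 FPKM in OTD and 109.7 in YTD (-1.09). Map2k2 (-0.75) and the kinase Lyn (0.66) followed in telogen, and Ptpn6 (-0.43), Mapk3 (0.40) and Fyn (0.36) led in anagen. The list had 11 genes higher and 15 lower in OTD, with a median of -0.14, and 14 higher and 12 lower in OAD, with a median of 0.01. In anagen against telogen, Gab2, Lyn, Pik3r1, Stat5a and Stat5b were changed to lower in both ages and Src to higher, while Fyn and Cbl were changed to higher in young and Hras in old mice.

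Of 16 genes around the melanocortin receptor, through which agouti acts, 0 were changed with age, beside 2.71% (telogen) and 0.908% (anagen) of all genes. Mc1r itself was at 0.0768 FPKM in OTD and 0.0811 in YTD, and 2.86 in OAD and 6.10 in YAD, so that it was found almost entirely in the anagen libraries, and there it was lower in OAD by 0.88 on the log2 scale. Atrn, a receptor needed for agouti to act, differed by 0.14 and the G protein subunit Gnas by 0.22. In telogen 12 of 15 were lower in OTD, led by Prkaca (-0.79), Mgrn1 (-0.48) and Mrap (-0.39). In anagen against telogen, Cpe, Gnas and Mrap were changed to lower in both ages, and Prkaca in young mice.

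Other signals that guide melanocytes also gave 0 of 15 changed genes with age, beside the same shares of all genes, 2.71% (telogen) and 0.908% (anagen). In telogen 11 stood higher in OTD (median 0.39), beside 5716 of 12982 genes with an FPKM of at least 1. They were led by the receptor Cxcr4 (9.15 FPKM in OTD and 4.76 in YTD, 0.82), its ligand Cxcl12 (0.77) and Bmp4 (0.69). In anagen Nrg1, a ligand of ERBB receptors, was lower (0.680 FPKM in OAD and 2.08 in YAD, -0.88), and Cxcr4 (0.53) and Cxcl12 (0.50) were higher. In anagen against telogen, Erbb3 and Bmp4 were changed to higher in both ages and Nrg1 in young mice. Cxcl12, Ackr3, Igf1 and Tgfb2 were changed to lower in both ages, and Fgf2 in old mice.

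The pigment genes themselves, 18 genes of melanin synthesis, melanosomes and their transcription factors, were lower in OAD than YAD without exception, with a median of -0.63. Of genes with an FPKM of at least 1, 6544 of 13068 were lower, with a median of -0.0006. The melanosome protein gene Pmel was changed, from 186 FPKM in YAD to 90.5 in OAD (-1.03), beside 0.908% of all genes changed. Slc45a2 (-0.91) and Oca2 (-0.90) came next. In OTD 11 stood above YTD and 7 below it (median 0.01). Sox10 was at 8.55 FPKM in OTD and 4.35 in YTD (0.84), while Tyrp1 (-0.73) and Dct (-0.62) were lower in OTD. In anagen 16 of 18 were changed to higher over telogen in young mice and 15 of 18 in old mice, beside 12.3% and 12.5% of all genes. The medians of the list were 3.11 and 2.59. The changed genes were Mitf, Tyr, Tyrp1, Dct, Pmel, Mlana, Slc45a2, Oca2, Slc24a5, Gpr143, Trpm1, Rab38, Mlph, Myo5a and Slc7a11 in both ages, and Pax3 in young mice.

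**Figure D5:**
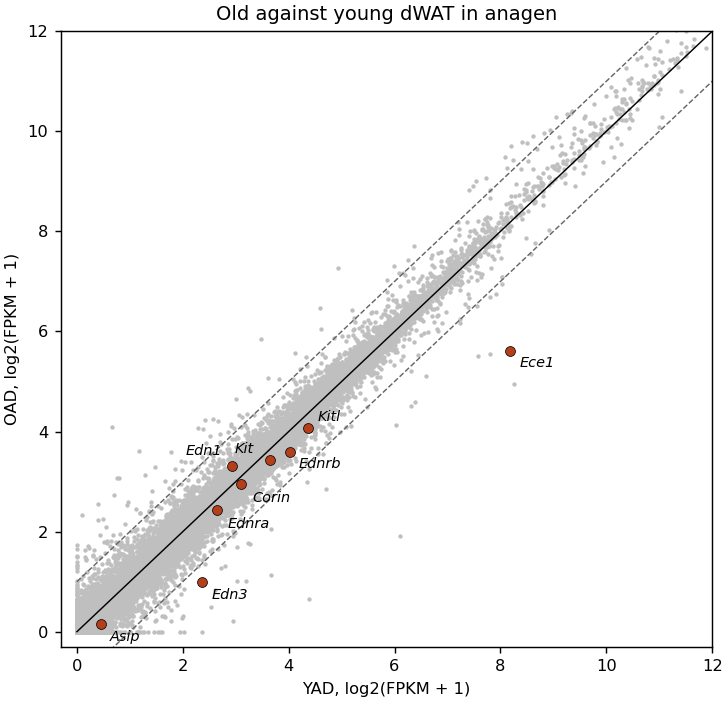
log2(FPKM + 1) of all genes up to 12 on both axes, in YAD (horizontal) and OAD (vertical), with the 9 genes in red, a solid line of equal level and dashed lines at differences of 1 and -1. Ece1 (difference of -2.57) and Edn3 (-1.38) lie below the lower dashed line, and the other 7 lie between the dashed lines.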

How the data were processed

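RNA of dWAT was sequenced in 4 libraries (OTD, YTD, OAD and YAD, 1 each). The authors deposited FPKM of 22913 genes, with the length (97.0% are multiples of 3, as coding lengths are) and GRCm38 position of each. Per the labels, bcl2fastq and TopHat2 were used. Their versions, the annotation and the tool that made the FPKM are not given in the sources used here. Symbols were matched for 21750 genes. The FPKM were used as deposited and differences taken on log2(FPKM + 1), with a threshold of 1. Fragments per gene were estimated from the lowest values of FPKM times length in genes of 2000 to 20000 bases, and 3 fragments were taken as the floor. The steps were tested on simulated data. The 9 genes, the lists of pathway genes and of cell type markers, and the thresholds were chosen with earlier results of these data known. Of each pathway list, the 3 largest differences with age among genes that reach an FPKM of 1 in either library compared and the changed genes are named (1 gene is not reported here), of each marker list the counts and sums, and of each of the 9 genes the 2 most alike in profile were computed. One listed marker, Krt85, was not matched. Alternatives were pseudocounts of 0.1 and 0.01, a filter on FPKM, TPM, the median of ratios, mitochondrially encoded genes left out, a threshold of 1.5, and, chosen after seeing the data, skeletal muscle genes also left out. For Asip, the listed features that overlap it were also added, weighted by length. Python 3.11.15, numpy 2.4.6, pandas 2.3.3, scipy 1.17.1 and matplotlib 3.10.9 were used.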

Additional observations from a re-analysis of the deposited data

Results flagged for a closer look

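The age difference had opposite signs in telogen and anagen for 4 of the 9 genes. The anagen difference minus the telogen difference of log2(FPKM + 1) was -0.94 for Ednrb, -0.83 for Kitl, -0.51 for Ednra and -0.26 for Kit. With 1 library per group the difference was not tested. For Kit in telogen and Ednra in anagen the interval of the ratio between old and young holds 1, so there the sign itself lies within counting error.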

How the results depend on the processing

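With 1 library per group no library could be left out, and no spread between mice is known. No paired analysis was possible because each group has 1 library and the labels give no replicate numbers. The differences of Ece1 between OAD and YAD ranged from -2.81 to -2.55 and those of Edn3 from -2.07 to -1.36 over the alternatives. The count of all genes changed with age in telogen moved from 620 to 2144 with a pseudocount of 0.1, 3445 with 0.01 and 141 with a threshold of 1.5, and in anagen from 208 to 1109, 2435 and 58. Between phases, it moved from 5767 to 9761 with a pseudocount of 0.01 and 3280 with a threshold of 1.5 in young mice, and from 5613 to 9616 and 3178 in old mice. Of the 9 genes, the count changed in telogen moved from 0 to 1 with a pseudocount of 0.1 (Asip, under 3 estimated fragments in OTD), 2 with 0.01 (Asip and Edn3), and 1 when mitochondrially encoded genes, or these and skeletal muscle genes, were left out (Edn1). With a threshold of 1.5 it was 1 in anagen with age and 2 between YAD and YTD, where it moved from 5 to 4 when mitochondrially encoded genes, or these and skeletal muscle genes, were left out, by the loss of Ece1. Medians of gene lists between OAD and YAD moved in TPM to -0.10 for the endothelin pathway, -0.21 for the KIT pathway, -0.084 for other melanocyte guidance and -0.85 for pigment genes, where the median of genes with an FPKM of at least 1 was -0.21, and the KIT pathway was at -0.14 without mitochondrially encoded genes (median of genes -0.15) and also when skeletal muscle genes were left out (-0.14). The split of changed genes between OAD and YAD was 128 higher and 80 lower, but 104 and 175 in TPM and 96 and 116 without mitochondrially encoded genes. Between OTD and YTD it was 287 and 333, but 490 and 186 without mitochondrially encoded genes, between YAD and YTD 2829 and 2938, but 5891 and 1274 in TPM, and between OAD and OTD 2854 and 2759, but 4923 and 1502 in TPM. Between phases, the sign of Ednra and Asip in young mice and of Edn1 and Kitl in old mice was the other way in TPM, as was that of Ednra in young mice without mitochondrially encoded genes. With its overlapping features added, Asip differed by 0.46 between YAD and YTD and by 0.32 between OAD and OTD, against -0.18 and -0.13.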
